A study of Mus musculus with 12 samples.

Results

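Gene expression was compared between inguinal and epididymal fat in cultured GFP- cells of male Zfp423-GFP transgenic mice. The comparison takes all arrays whose labels name GFP- cells, 3 from inguinal and 3 from epididymal fat, which is 6 of the 12 arrays of the series. The other 6 arrays hold the GFP+ cells of the same 2 depots. All donors were males aged 6 to 8 weeks with a genetic background given as FVB and C57BL/6, and every group carries the transgene. Stromal vascular cultures, the cells left once fat cells are removed, were sorted on green fluorescent protein, returned to culture in DMEM/F12 with serum and harvested while still proliferating. The labels call the sorted cells fibroblasts but name no sorting marker beside the reporter, so other cell types that lack it can be in the GFP- fraction. No label ties a replicate to its own animal or culture. The p-values therefore reflect how far these samples scatter, which can be technical scatter alone, and whether donors were pooled is not given in the sources used here. The stated purpose is to find genes typical of preadipocyte fibroblasts from either depot.

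Inguinal fat lies under the skin, whereas epididymal fat lies within the abdominal cavity and is covered by mesothelium, a sheet of cells with both epithelial and mesenchymal features. Mesothelial cells are known for keratins, uroplakin and mesothelin and for the transcription factors Wt1 and Bnc1. Resident macrophages of fat express lysozyme, the C1q complement subunits and the receptor Csf1r, and can be carried along in stromal vascular cultures. Zfp423, whose reporter was used for the sort, is a zinc-finger factor that commits fibroblasts to the fat lineage.

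The arrays measured 12393 genes, each by its brightest probe set. Median signal of the 12 arrays lay between 347.3 and 371.2. Arrays of the same depot correlated across genes at r of 0.994 to 0.995 for inguinal and 0.994 for epididymal cells, and arrays of different depots at 0.954 to 0.957, a description only because genes are not independent replicates. The 61 measured olfactory and vomeronasal receptor genes, which fibroblasts do not use, read a median signal of 19.4 in inguinal and 21.0 in epididymal cells, and that level is taken here as the floor of the array. Genes in the lowest 30% of means, a signal under 77.7, are called weakly detected. Many fibroblast genes were bright on all 6 arrays, with the collagen Col1a2 at 37584, 37757 and 36825 on the inguinal and 31324, 32073 and 31584 on the epididymal arrays. Pdgfra, a receptor of mesenchymal cells, read 4627 ± 367 (SD, n = 3) and 7382 ± 907. Across the 32 measured fibroblast markers the median signal was 5371 in inguinal and 3248 in epididymal cells. Not all of them were bright. Pi16 was at the floor in both groups, and Dpp4 (11.8) and Clec3b (5.58) were at the floor in inguinal cells. Dpt (29.5) was near it in epididymal cells. Zfp423 was weakly detected in both, at 47.4, 73.2 and 51.7 in inguinal and 29.1, 25.8 and 33.4 in epididymal cells, against group means of 124 and 242 in the GFP+ cells.

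Sequences upstream of 6 genes are printed as examples. Of these, 3 come from macrophage genes higher in inguinal cells that hold the letters searched below. The others come from the macrophage gene Lyz2 and the mesothelial genes Upk3b and Bnc1. Each is the 250 bases before the transcription start from RefSeq (GRCm38.p6), 5′ to 3′ on the strand of the gene. They lie at chr4:136886201-136886450 (- strand) for C1qb, chr4:136892915-136893164 (- strand) for C1qc, chr3:95526536-95526785 (+ strand) for Ctss, chr10:117282273-117282522 (- strand) for Lyz2, chr5:136038246-136038495 (+ strand) for Upk3b and chr7:81992300-81992549 (- strand) for Bnc1. Capitals mark GAGGAA or its reverse complement TTCCTC, the core letters bound by the macrophage factor PU.1.
C1qb: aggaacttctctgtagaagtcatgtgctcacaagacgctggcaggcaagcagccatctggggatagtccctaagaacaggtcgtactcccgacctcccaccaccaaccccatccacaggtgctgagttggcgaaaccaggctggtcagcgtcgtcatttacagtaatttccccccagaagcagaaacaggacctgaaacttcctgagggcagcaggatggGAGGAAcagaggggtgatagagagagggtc
C1qc: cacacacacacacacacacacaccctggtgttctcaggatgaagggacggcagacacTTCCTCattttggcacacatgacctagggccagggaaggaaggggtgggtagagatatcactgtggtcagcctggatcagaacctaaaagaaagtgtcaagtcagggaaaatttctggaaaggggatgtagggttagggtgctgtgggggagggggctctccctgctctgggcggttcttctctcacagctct
Ctss: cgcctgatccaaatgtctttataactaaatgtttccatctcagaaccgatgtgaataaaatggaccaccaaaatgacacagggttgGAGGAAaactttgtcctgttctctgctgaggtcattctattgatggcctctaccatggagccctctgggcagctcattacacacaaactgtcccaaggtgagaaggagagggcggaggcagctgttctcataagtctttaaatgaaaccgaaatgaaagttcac
Lyz2: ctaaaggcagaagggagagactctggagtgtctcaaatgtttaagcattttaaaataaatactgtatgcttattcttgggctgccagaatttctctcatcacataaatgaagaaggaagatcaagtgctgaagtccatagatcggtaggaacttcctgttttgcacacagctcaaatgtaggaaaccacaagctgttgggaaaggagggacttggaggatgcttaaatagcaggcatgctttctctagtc
Upk3b: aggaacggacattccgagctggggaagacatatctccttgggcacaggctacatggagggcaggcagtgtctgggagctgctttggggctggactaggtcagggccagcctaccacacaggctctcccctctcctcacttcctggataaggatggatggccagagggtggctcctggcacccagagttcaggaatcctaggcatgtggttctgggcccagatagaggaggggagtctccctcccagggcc
Bnc1: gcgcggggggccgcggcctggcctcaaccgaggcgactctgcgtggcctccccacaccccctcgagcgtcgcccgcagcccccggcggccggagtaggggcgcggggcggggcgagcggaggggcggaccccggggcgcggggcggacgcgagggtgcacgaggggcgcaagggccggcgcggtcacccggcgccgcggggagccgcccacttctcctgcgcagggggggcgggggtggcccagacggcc
Of the macrophage markers with an upstream sequence in the table, 13 of 21 (61.9%) held these letters on either strand, against 2 of 13 mesothelial markers, 7 of 18 fibroblast markers and 23.1% of all 27025 genes with such a sequence. AGATAA, the core of GATA sites, was present upstream of 2 of 21 macrophage, 1 of 13 mesothelial and 1 of 18 fibroblast markers and 10.3% of all genes. GGAATG, the core of TEAD sites, was present upstream of 1 of 21, 3 of 13 and 3 of 18 markers of these lists and 12.6% of all genes. These matches describe letters in a window and not binding. They were counted over whole lists, whether or not a member differed between the depots, so they do not bear on the depot difference. The letters were chosen after the values were seen.

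Pla1a and Lyz2 were higher in inguinal GFP- cells, and Upk3b and Bnc1 were higher in epididymal GFP- cells. Pla1a, a phosphatidylserine phospholipase, read 6571, 6669 and 6240.5 on the inguinal arrays and 121, 173 and 150.4 on the epididymal arrays. The groups lie far apart, with a log2 difference of 5.32 ± 0.08 (SE; adjusted p = 2.01e-17, limma, adjusted by the Benjamini-Hochberg method). All log2 differences are inguinal minus epididymal, and because 16 is added to each signal before the log they come out too small for dim genes. Lyz2, a lysozyme of macrophages, read 3561, 4327 and 4146 on the inguinal arrays and 828, 832 and 755 on the epididymal arrays. Its difference was 2.29 ± 0.13 (adjusted p = 3.39e-10), with every inguinal array above every epididymal array. Upk3b, a uroplakin of the mesothelial surface, read 15, 17.7 and 4.72 on the inguinal arrays and 9045, 9812 and 9518 on the epididymal arrays. The inguinal readings are at or under the floor of the array, and the difference was -8.41 ± 0.15 (adjusted p = 1.90e-16). Bnc1, a zinc-finger factor of mesothelium, read 18.1, 32.2 and 29.8 on the inguinal arrays and 10195, 10949 and 10362 on the epididymal arrays, a difference of -7.96 ± 0.13 (adjusted p = 5.63e-17). In RNA pooled from a culture, fewer cells of a type and less RNA per cell cannot be told apart.

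**Figure D1:**
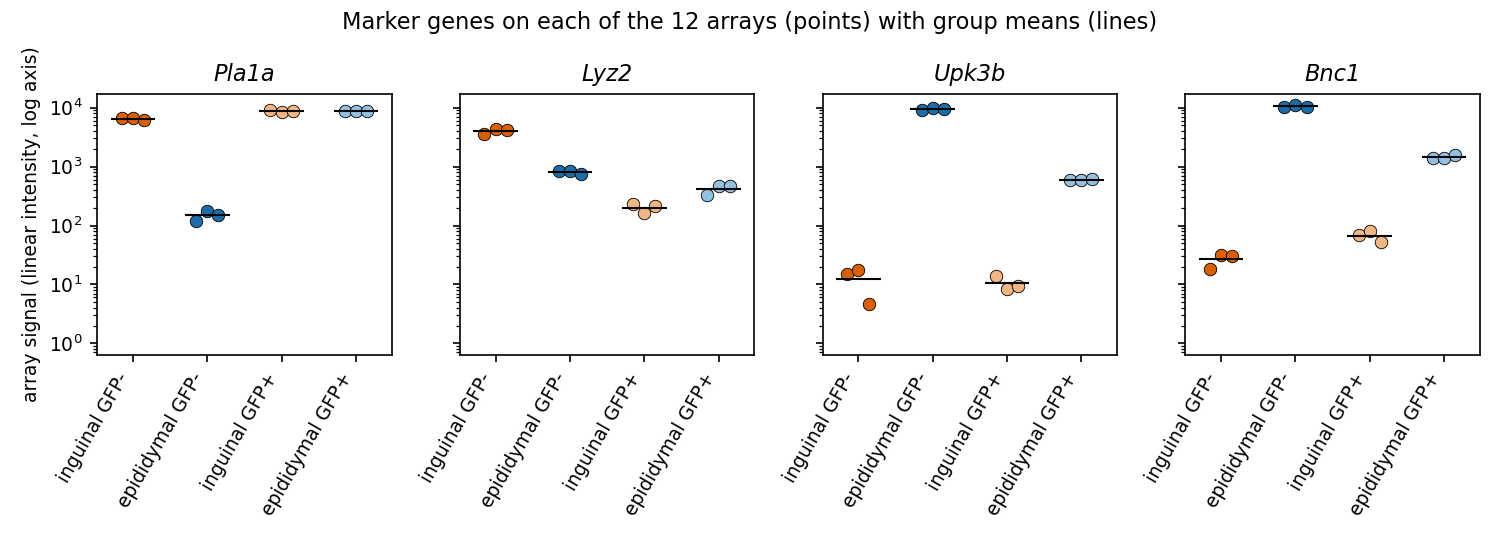
Signal of Pla1a, Lyz2, Upk3b and Bnc1 (linear intensity on a log axis) on each of the 12 arrays, with points for arrays and lines for the means of the 3 arrays of a group. Inguinal GFP- arrays lie above epididymal GFP- arrays for Pla1a and Lyz2 and below them for Upk3b and Bnc1, and the GFP+ arrays show how far each gene follows the depot in the other fraction.

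The sorted fraction changes the depot pattern of these markers. Pla1a read 8792 ± 427 in inguinal and 8842 ± 109 in epididymal GFP+ cells (log2 difference -0.01, 95% interval -0.18 to 0.16), so of the 4 groups the epididymal GFP- group alone is low. The depot difference in GFP- cells exceeded that in GFP+ cells by 5.33 (interaction, limma adjusted p = 7.68e-15). Lyz2 was lower in inguinal than in epididymal GFP+ cells (201 ± 36.4 and 419 ± 79.1, log2 difference -1.0), the opposite direction to GFP- cells (interaction 3.29, adjusted p = 8.05e-10). Upk3b and Bnc1 kept their direction in GFP+ cells with log2 differences of -4.54 and -4.17, smaller than in GFP- cells (interaction -3.87 and -3.79, adjusted p = 6.00e-10 and 1.26e-10).

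The depots differed in a large share of all genes. Of 12393 genes tested, 6656 passed an adjusted p of 0.05 (53.7%), 3399 of them higher in inguinal cells (27.4%) and 3257 lower (26.3%). At least 2-fold changes were made by 1284 genes (10.4%), 614 higher (4.95%) and 670 lower (5.41%). Changes of at least 8-fold numbered 77 and 105. The arrays of the groups did not overlap for 7566 genes (61.1%). With a background this high, the count of called members of a gene list says little on its own, and the direction and the size carry the description below. The median over all genes was -0.02.

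**Figure D2:**
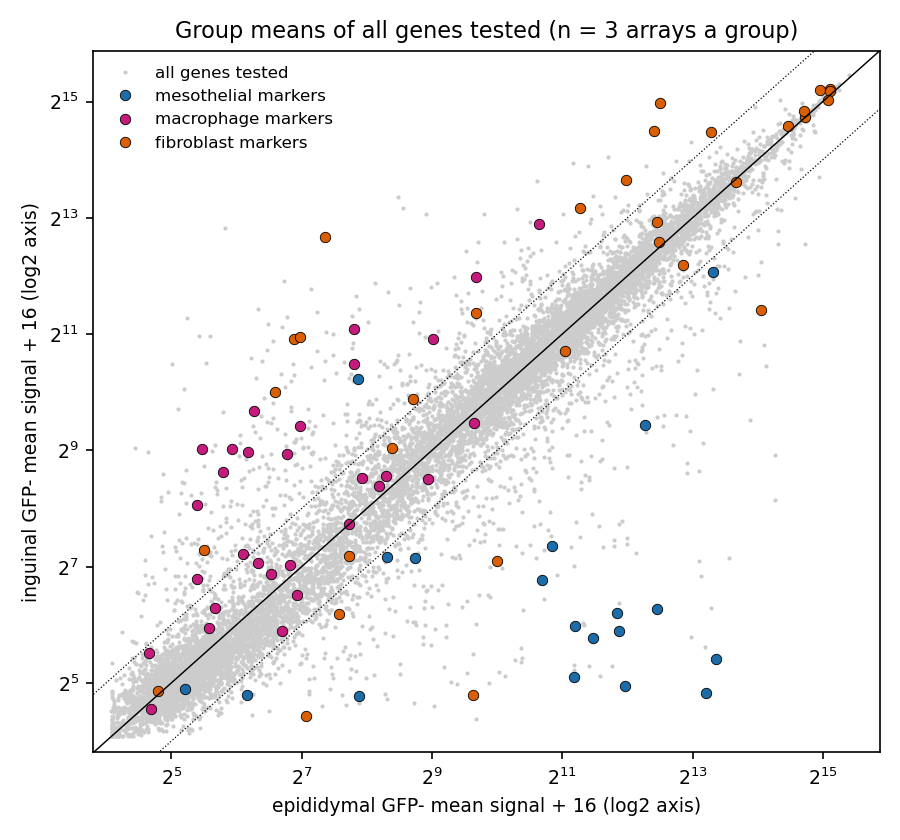
Mean signal plus 16 of each gene in epididymal GFP- cells (x axis) and inguinal GFP- cells (y axis), both on log2 axes, with all 12393 genes in grey, equality as a solid line and 2-fold as dotted lines. Most mesothelial markers lie to the lower right of the 2-fold line, many of them far from it, while Krt19 lies above equality and Pkhd1l1 near it. Most macrophage markers lie above the line of equality, and fibroblast markers lie on both sides of it.

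Among the 20 genes with the largest rise in inguinal GFP- cells were the transcription factors Shox2, Irx1, Ebf1, Ebf2, Meox2 and Tbx15. Shox2, a homeobox factor of the limb, read 2007, 1964 and 1996 on the inguinal arrays and 34.3, 36.7 and 10.2 on the epididymal arrays, a log2 difference of 5.61 ± 0.25. Tbx15, a T-box factor of subcutaneous fat, read 2242, 2227 and 2209 on the inguinal arrays and 85.3, 85.8 and 92.1 on the epididymal arrays (4.43 ± 0.08). Both are dim on every epididymal array and bright on every inguinal array. Irx1 (4.99) and Meox2 (4.60), homeobox factors, belong to the same 20. The early B-cell factors Ebf1 and Ebf2, which mark fat progenitors, were also among them. Ebf1 read 3544, 3374 and 3513 on the inguinal arrays and 119, 130.2 and 126 on the epididymal arrays (4.63 ± 0.05), and Ebf2 835, 808 and 812 on the inguinal arrays and 15.2, 15.1 and 25.1 on the epididymal arrays (4.61 ± 0.10).

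Several secreted proteins were among the same 20 genes. Dkk2, a Wnt antagonist, read 2374, 2371 and 2635 on the inguinal arrays and 3.06, 27.8 and 35.0 on the epididymal arrays (6.15 ± 0.26). Fgf7, a growth factor made by fibroblasts for epithelia, read 3846, 3818 and 3833 on the inguinal arrays and 98.5, 85.6 and 87.6 on the epididymal arrays (5.18 ± 0.06). Hgf, the ligand of Met, was at 1049 ± 30.2 and 20.6 ± 5.40 (4.88). Igfbp5, which binds insulin-like growth factors, was at 2747 ± 121 and 64.4 ± 10.2 (5.11), and the chemokine Cxcl14 at 9149.9 ± 163 and 361 ± 53.8 (4.61). The matricellular proteins Ccn5 and Ccn3 differed by 4.87 and 4.67. Further members were Gjb2, a connexin (5.40), Gzme, a granzyme (5.52), Tubb3, a tubulin typical of neurons (4.53), Cmah, an enzyme of sialic acid synthesis (4.36), and Ms4a4d (4.35). Another probe set of Cmah gave 2.02.

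The largest rise of all belonged to Rpl39l, a paralogue of the ribosomal protein gene Rpl39. It read 7199, 7309 and 7105 on the inguinal arrays and 34.5, 35.5 and 53.0 on the epididymal arrays, a log2 difference of 7.0 ± 0.18 (adjusted p = 1.67e-14), and the same in GFP+ cells (6474 against 26.5, log2 difference 7.32, interaction adjusted p = 0.402). The probe set of Rpl39 itself, looked at after these values were seen, was weakly detected at 42.0 and 55.9, and how the probe sets divide transcripts of the 2 paralogues was not tested. The lower group was weakly detected for 12 of the 20 genes, so the size of their log2 difference is limited by the value of 16 added to each signal.

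The 20 largest falls, genes higher in epididymal GFP- cells, were led by Upk3b and Bnc1 and held Bmp4, Rspo1, Sfrp2 and Igfbp3, which encode secreted proteins. Bmp4, a bone morphogenetic protein that promotes commitment to fat, read 28.4, 48.2 and 41.6 on the inguinal arrays and 7683, 8049 and 8292 on the epididymal arrays, a log2 difference of -7.19 ± 0.15. Rspo1, an agonist of Wnt signalling, read 8.27, 22.7 and 13.9 on the inguinal arrays and 3706, 3984 and 4247 on the epididymal arrays (-7.04 ± 0.20). Sfrp2, a secreted Wnt modulator, read 16.9, 22.2 and 17.6 on the inguinal arrays and 2442, 3600.2 and 3135 on the epididymal arrays (-6.45 ± 0.34). These genes read near the floor in inguinal cells and brightly on every epididymal array. Igfbp3 was at 268 ± 59.1 in inguinal and 19596 ± 593 in epididymal cells (-6.13 ± 0.26).

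Other genes among the 20 largest falls have varied known roles. Stk26, a protein kinase, read 33.1 ± 13.1 and 9361 ± 325 (-7.61). Clu, the chaperone clusterin, differed by -7.0, Cxadr, a junctional adhesion receptor, by -6.49, and Perp, a desmosome-associated protein, by -5.88. Slpi, a secreted protease inhibitor, read 125 ± 24.4 and 12027 ± 1308 (-6.42), and Saa3, an acute-phase protein, 121 ± 27.2 and 8799 ± 1219 (-6.01). Hal, histidine ammonia-lyase (-6.17), Gsta3, a glutathione transferase (-6.12), Pdlim3, a PDZ and LIM domain protein (-5.91), and Fam110c (-6.30) complete the group apart from members of the mesothelial list. Probe sets of Cxadr spread from -6.49 to 0.08, with the last one dim. The lower group was weakly detected for 16 of these 20 genes.

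**Figure D3:**
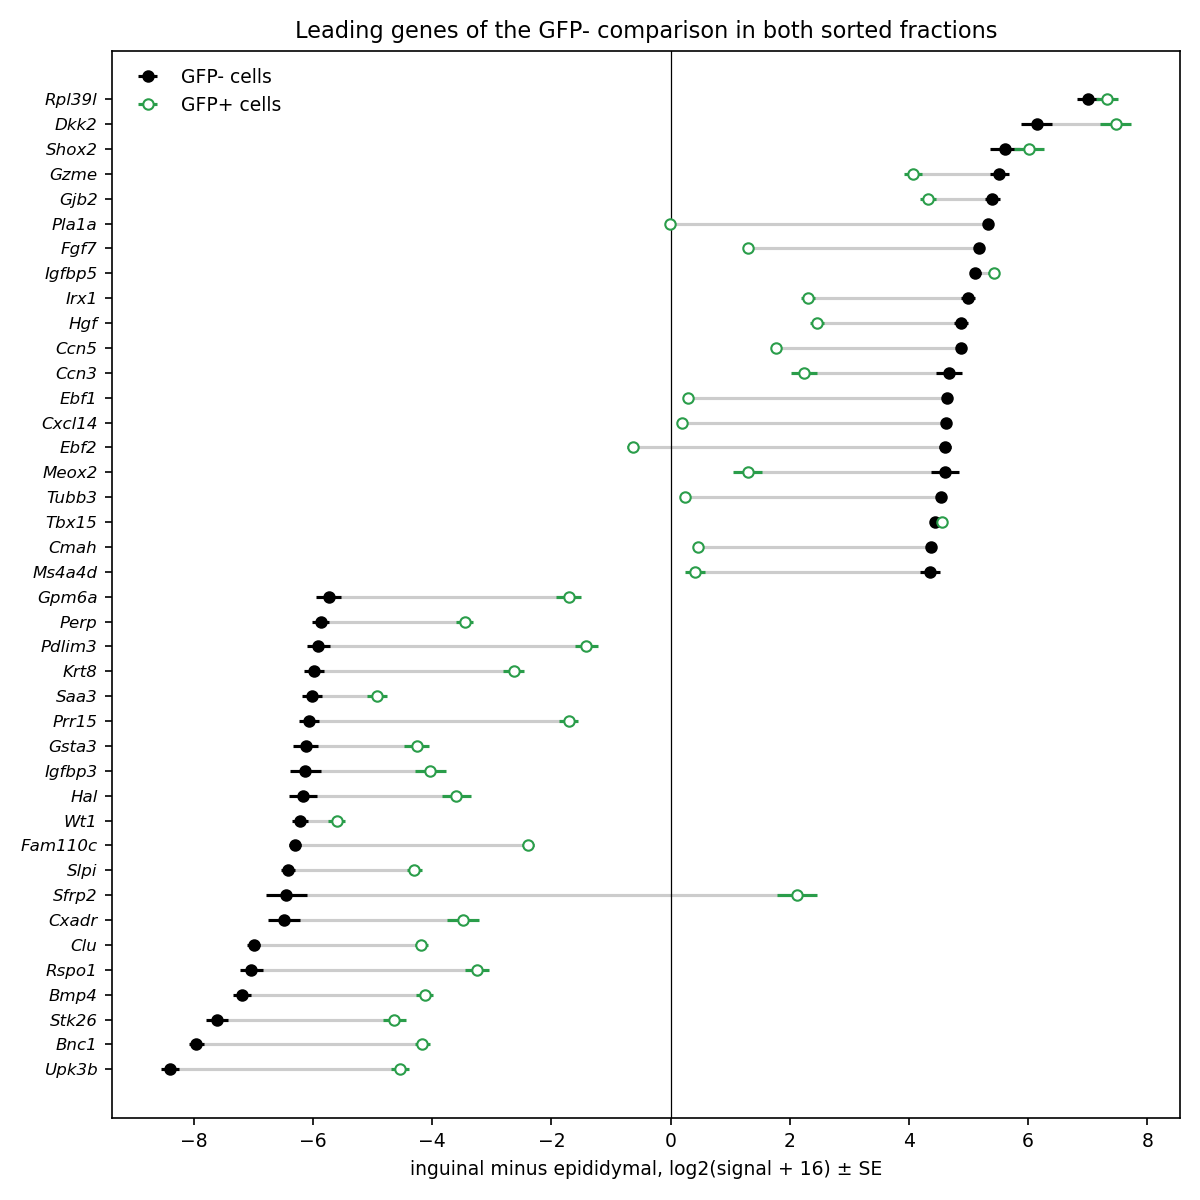
Log2 difference between inguinal and epididymal cells (x axis, log2(signal + 16), ± SE) for the 20 genes with the largest called rise and the 20 with the largest called fall in GFP- cells (y axis), in GFP- cells (filled) and in GFP+ cells (open). Tbx15, Shox2, Igfbp5 and Rpl39l have nearly the same difference in both fractions, Pla1a, Ebf1 and Cxcl14 are near 0 in GFP+ cells, and Sfrp2 changes sign.

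Set beside the GFP+ cells, the leading genes were of several kinds. Tbx15, Shox2, Igfbp5 and Rpl39l differed by depot in GFP+ cells too (4.55, 6.01, 5.42 and 7.32), and the interaction was not called for them (adjusted p = 0.522, 0.448, 0.0737 and 0.402). The 95% interval of the interaction ran from -0.37 to 0.14 for Tbx15 and from -1.16 to 0.36 for Shox2. Ebf1, Cxcl14 and Tubb3 were bright in both GFP+ groups and in inguinal GFP- cells, with GFP+ differences of 0.29, 0.20 and 0.24. Ebf2 was lower in inguinal than epididymal GFP+ cells (-0.64, interaction adjusted p = 1.07e-13). Sfrp2, low in inguinal GFP- cells, was higher in inguinal than in epididymal GFP+ cells (217 ± 129 and 33.6 ± 16.1, log2 difference 2.12, interaction adjusted p = 6.26e-10). Since these genes were taken for their size in GFP- cells, a smaller difference in GFP+ cells is favoured by the choice, and the count of interactions among them is not read as a result.

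Of the 23 mesothelial markers listed, 19 were measured, and among these 1 was higher in inguinal, 17 were lower and 1 was not called. The share lower was 89.5%, against 26.3% of all genes. All 17 that fell did so by at least 2-fold, and the median over the list was -3.90. Wt1, the zinc-finger factor of mesothelium and visceral fat, read 39.7, 59.6 and 84.8 on the inguinal arrays and 5589.6, 5586 and 5598 on the epididymal arrays (-6.22 ± 0.14, adjusted p = 2.97e-15). Msln, mesothelin, read 55.6, 50.5 and 35.7 on the inguinal arrays and 2411, 2252 and 2329.6 on the epididymal arrays (-5.23 ± 0.14). Both genes are bright on the epididymal arrays and dim on the inguinal ones without overlap. The simple keratins Krt8 and Krt18 followed at -5.99 and -5.66, with Gpm6a, a neuronal membrane glycoprotein also found in mesothelium (-5.74), Prr15 (-6.07), Nkain4 (-3.90) and Isl1, a LIM homeobox factor (-3.14).

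Other members had smaller differences. Efemp1, a fibulin of the matrix, read 676 against 4915 in the inguinal and epididymal means (-2.83), and the retinaldehyde dehydrogenase Aldh1a2 4267 against 10198 (-1.25). Smaller falls were those of Podxl (-1.56), Dmkn (-1.36) and Cldn15 (-1.14). Krt19, a keratin of simple epithelia, went the other way and read 1203, 1243 and 1113 on the inguinal arrays and 267, 177 and 205 on the epididymal arrays (2.39 ± 0.11, adjusted p = 2.86e-11). Pkhd1l1 read at the floor in both groups (13.8 against 20.9, adjusted p = 0.321).

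Krt7 showed a depot difference of opposite sign in the other fraction. It read 144, 146 and 155 on the inguinal arrays and 1534, 2169.9 and 1787 on the epididymal arrays in GFP- cells (-3.48 ± 0.11), and 593, 574 and 525 in inguinal against 52.9, 52.7 and 62.6 in epididymal GFP+ cells (log2 difference 3.01, interaction adjusted p = 5.29e-14). Across list members the median signal was 47.3 in inguinal GFP-, 2331 in epididymal GFP-, 41.3 in inguinal GFP+ and 212 in epididymal GFP+ cells. Summed over the measured mesothelial list, signal ran from 6851 to 7229 on inguinal and from 62523 to 65681 on epididymal GFP- arrays. In GFP+ cells it ran from 14873 to 16234 in inguinal and from 18029.5 to 18549 in epididymal cells, and Aldh1a2 makes up most of the inguinal GFP+ sum. Aldh1a2 read 12822 ± 876 in inguinal and 7466 ± 100.3 in epididymal GFP+ cells (log2 difference 0.78), and Krt19 1292 ± 114 and 191 ± 10.8. The interaction was called for 15 members, each time with the GFP- difference more negative, against 34.8% of all genes. The part of mesothelial cells in the other differences between the depots was not tested. Of the defining mesothelial genes, Upk3b, Bnc1 and Msln are at or near the floor in inguinal cells.

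**Figure D4:**
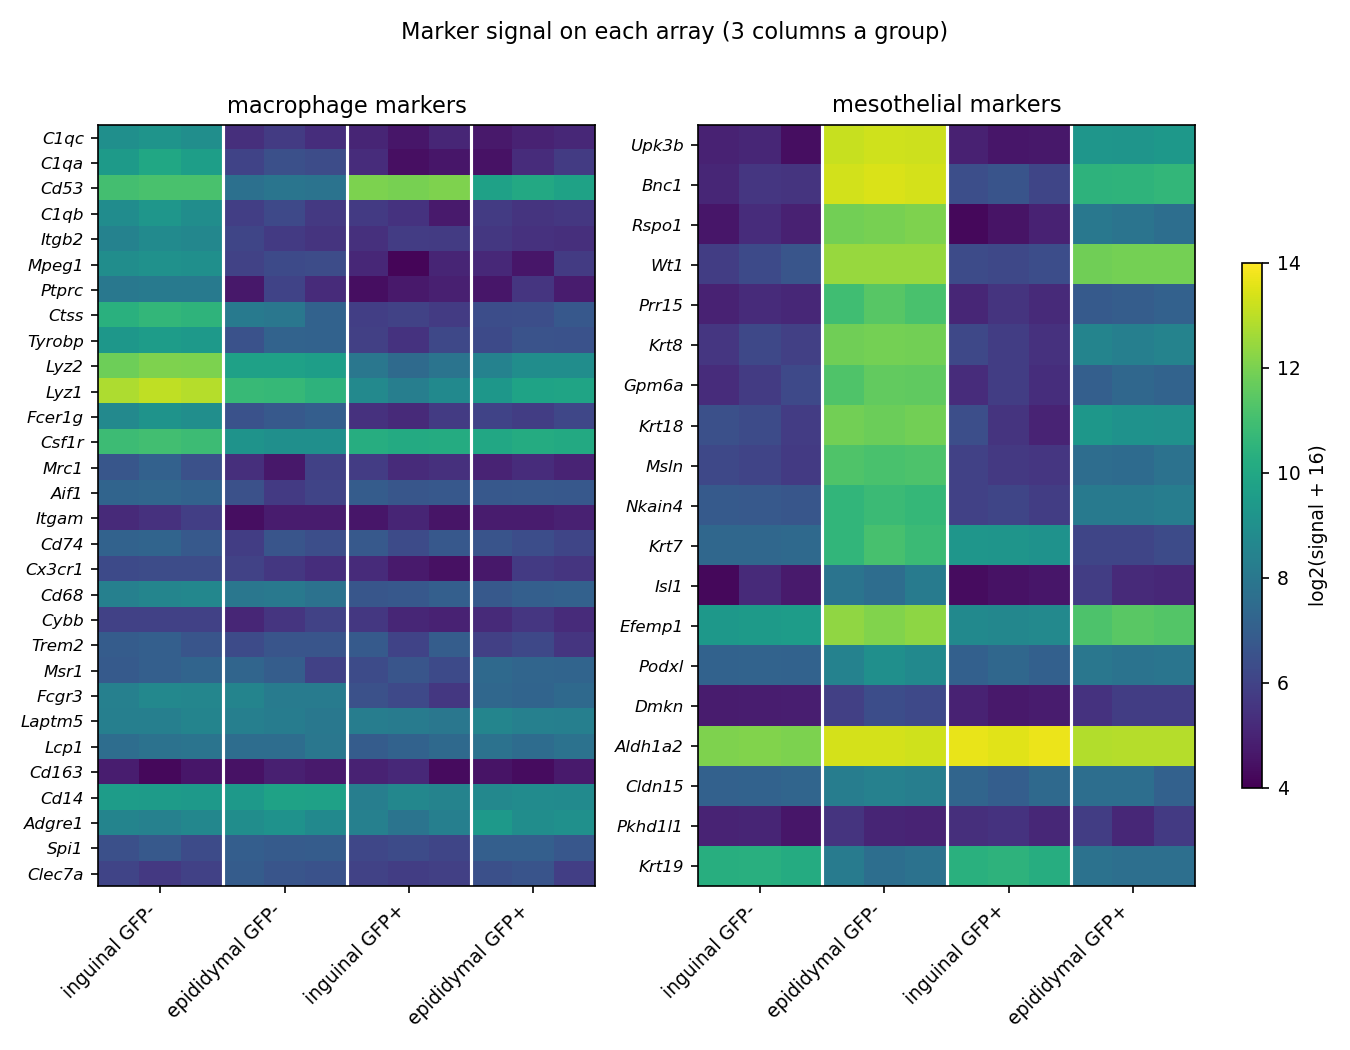
Signal as log2(signal + 16) (colour) of the measured macrophage markers (left) and mesothelial markers (right) on each array, 3 columns a group, ordered by their difference between inguinal and epididymal GFP- cells. The C1q genes, Ctss and Tyrobp stand out on the inguinal GFP- arrays alone, and the mesothelial genes other than Krt19, Aldh1a2 and Pkhd1l1 are brightest on the epididymal GFP- arrays.

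Macrophage genes were higher in inguinal GFP- cells. Of 30 measured macrophage markers, 18 (60%) were higher in inguinal, 3 (10%) were lower and 9 were not called, against 27.4% and 26.3% of all genes. The list median was 1.00, and 15 of the rises were at least 2-fold. C1qa, C1qb and C1qc encode the chains of the complement component C1q, which macrophages secrete. C1qa read 681, 970.3 and 773 on the inguinal arrays and 49.0, 70.2 and 64.4 on the epididymal arrays (3.41 ± 0.29), C1qb 444, 599 and 467 on the inguinal arrays and 42.3, 58.5 and 34.9 on the epididymal arrays (3.09 ± 0.23) and C1qc 483, 568 and 473 on the inguinal arrays and 24.2, 36.7 and 23.9 on the epididymal arrays (3.57 ± 0.20, adjusted p = 2.42e-10). All 3 are dim on each epididymal array. Csf1r, the growth factor receptor on which macrophages depend, read 1861, 2009 and 1860.5 on the inguinal arrays and 543, 483 and 487 on the epididymal arrays (1.89 ± 0.06). Another of the probe sets of Csf1r gave 0.18.

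Further macrophage markers rose. The adaptor Tyrobp read 617, 731 and 655 on the inguinal arrays and 75.0, 130.0 and 124 on the epididymal arrays (2.47 ± 0.20), and Fcer1g, another adaptor chain of immune receptors, differed by 2.17. Ctss, a lysosomal protease, read 1282, 1544 and 1421 on the inguinal arrays and 262, 232 and 127 on the epididymal arrays (2.73 ± 0.20). Mpeg1, a pore-forming protein, and the leukocyte genes Itgb2 and Ptprc differed by 2.80, 2.85 and 2.77. Lyz1 differed by 2.25 and Lyz2 by 2.29, and probe sets of these near-identical paralogues may not separate them. Mrc1 (1.46), Aif1 (1.15), Itgam (0.85) and Cd68 (0.59) rose less. Cd74 was called at 0.76 (adjusted p = 0.0101), and not without epididymal replicate 1 (adjusted p = 0.0621).

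Not every macrophage gene followed. Clec7a, a receptor for fungal glucans, was lower in inguinal cells at 43.6 against 87.6 (-0.80, adjusted p = 0.00389). Adgre1, the F4/80 antigen, read 344, 321 and 375 on the inguinal arrays and 468, 538 and 417 on the epididymal arrays (-0.43, adjusted p = 0.0234), and lost its call without inguinal replicate 1 or 2 or epididymal replicate 1 or 2 (adjusted p = 0.0559, 0.0839, 0.0510 and 0.106). Spi1, which encodes PU.1, read 70.8, 93.4 and 61.3 on the inguinal arrays and 111, 102 and 105 on the epididymal arrays (-0.44, adjusted p = 0.0372). Its call was lost without epididymal replicate 1, 2 or 3 or inguinal replicate 1 or 3 (adjusted p = 0.0911, 0.0627, 0.0728, 0.0965 and 0.155). Cd14, a coreceptor for endotoxin, read 691 against 784 (adjusted p = 0.174; 0.0263 without epididymal replicate 1), and Cd163 read at the floor in both groups (7.60 against 9.89). Laptm5, Lcp1 and Msr1 were not called by their brightest probe sets, but were called higher when probe sets were averaged within a gene (0.96, 0.67 and 0.77). Cybb, Fcgr3, Trem2 and Cx3cr1 were not called either (0.41, 0.27, 0.34 and 0.66). Cx3cr1 was called higher without epididymal replicate 1, after quantile normalization, with array weights, with 64 added in place of 16 and in a fit of the 6 GFP- arrays alone (adjusted p = 0.0410, 0.0327, 0.0356, 0.0236 and 0.0202).

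In GFP+ cells the macrophage list leaned the other way, with 2 of 30 members higher in inguinal and 12 lower. The background in that comparison was 50.8% called, 23.6% higher and 27.2% lower. The interaction was called for 20 members, all with the GFP- difference the more positive, and for 34.8% of all genes. Cd53, a leukocyte tetraspanin, did not follow Lyz2. It read 2159.7 ± 111 and 208 ± 13.4 in inguinal and epididymal GFP- cells, and 4109.9 ± 198 and 905 ± 101 in the GFP+ cells, in which Lyz2 was low. Summed signal of the macrophage list ran from 22246 to 26386 on inguinal and from 6223 to 6904 on epididymal GFP- arrays, and from 7222 to 7944 and from 5529.9 to 6091 on the GFP+ arrays. Of the defining macrophage genes, the 3 C1q genes and Mpeg1 are at or near the floor in both GFP+ groups. Csf1r is not, with 1125 ± 45.6 in inguinal and 1065 ± 66.3 in epididymal GFP+ cells, above its level in epididymal GFP- cells. The part of macrophages in the other differences between the depots was not tested.

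Fibroblast markers split rather than shifting together. Of 32 measured, 19 (59.4%) were higher in inguinal, 8 (25%) were lower and 5 were not called, against 27.4% and 26.3% of all genes. The median was 0.12. Some abundant members had small differences. Col1a1 read 24383 against 22493 (0.12), Col3a1 37879.5 against 35236 (0.10, not called after quantile normalization, adjusted p = 0.0631) and Lox, which crosslinks collagen, 29294 against 26831 (0.13). Fn1, Loxl1 and Fbln2 were not called (-0.04, -0.06 and 0.02). Fn1 was called lower when probe sets were averaged (-0.23, adjusted p = 1.97e-05), after quantile normalization (adjusted p = 1.96e-04) and without weakly detected genes (adjusted p = 0.0310), and Loxl1 after quantile normalization (adjusted p = 0.00772). These signals lie in the upper part of the range, whose largest value was 46213. Vim was called at 0.07 (adjusted p = 0.0124), and not without inguinal replicate 1 (adjusted p = 0.0510) or epididymal replicate 2 or 3 (adjusted p = 0.0601 and 0.05001). Its call was also lost after quantile normalization (0.02, adjusted p = 0.461), with averaged probe sets (adjusted p = 0.0685) and without the variance trend (adjusted p = 0.0839).

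Higher in inguinal cells were Postn, periostin, at 32199, 32218 and 32527 against 5468, 6134 and 5772 (2.48 ± 0.03), Mfap5, a microfibril protein, at 22699.9, 23182 and 23092 against 5412, 5245 and 5554 (2.09 ± 0.03), and Col15a1, a collagen next to basement membranes, at 1909.8, 1850.1 and 1969 against 93, 115 and 99.1 (4.03 ± 0.09). In each case the lowest inguinal array exceeds the highest epididymal array several-fold. Col14a1 (3.42, with another probe set at 1.83), the factors Twist2 (3.98) and Prrx1 (1.91), the receptors Pdgfrb (1.67) and Ddr2 (1.68), and Dpt, dermatopontin (1.74), rose with them. Smaller rises were those of Fbln1 (1.17), Fap (0.66) and Thy1 (0.47), and Sparc was not called (0.04; adjusted p = 0.0368 without inguinal replicate 3). Pdgfrb read 12885 ± 234 and 4042 ± 58.9, and the order of the depots was the reverse in GFP+ cells (11859.9 and 13349, log2 difference -0.17, interaction adjusted p = 6.00e-15). Col14a1, Fap and Col15a1 were lower in inguinal GFP+ cells too (-0.94, -0.76 and -0.42), while Dpt, Ddr2 and Fbln1 stayed higher (3.01, 0.68 and 0.61). Over the list, 16 members were higher and 11 lower in inguinal GFP+ cells, against 23.6% and 27.2% of all genes.

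Higher in epididymal cells were the proteoglycans Dcn and Lum and surface genes of fibroblast progenitors. Dcn, decorin, read 2284, 2632 and 3236 on the inguinal arrays and 15697, 18059.5 and 16858 on the epididymal arrays (-2.64 ± 0.17), and Lum, lumican, 72.8, 131 and 161 on the inguinal arrays and 886, 1164 and 970.2 on the epididymal arrays (-2.94 ± 0.27). Dpp4, a peptidase of interstitial progenitors, read 2.89, 19.9 and 12.7 on the inguinal arrays and 688, 888 and 744 on the epididymal arrays (-4.87 ± 0.25), at the floor on the inguinal arrays. Clec3b (-2.61), Cd34 (-1.39), Pdgfra (-0.67) and Twist1 (-0.33) were lower in inguinal cells too. Mfap4 was called at -0.55 (adjusted p = 0.0252), but not without inguinal replicate 1 or 2 (adjusted p = 0.0612 and 0.0980) or epididymal replicate 2 or 3 (adjusted p = 0.0611 and 0.0616). Pi16 was at the floor in both (13.0 against 11.8).

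Matrix genes were more often higher than lower in inguinal cells. Of 40 measured collagens and matrix proteins, 23 (57.5%) were higher in inguinal, 9 (22.5%) were lower and 8 were not called. Over all genes the shares were 27.4% and 26.3%, and the list median was 0.19. Col1a1, Col1a2, Col3a1, Col5a1, Col6a1, Col14a1, Col15a1, Fn1, Postn, Dcn and Lum are also in the fibroblast list, so the counts of these lists are not separate results. Col5a1, a fibril collagen, read 22723 ± 329 and 9953 ± 297 (1.19), Thbs2, a thrombospondin, read 15685 ± 344 and 2277 ± 139 (2.78), and Prelp, a leucine-rich proteoglycan, 1831 ± 79.1 and 205 ± 12.3 (3.06, with a second probe set at 0.85). Basement membrane and integrin genes went both ways: of 25 measured, 9 were higher in inguinal, 10 were lower and 6 were not called (median -0.13). Lama2, a laminin chain, was higher in inguinal cells (1427 ± 43.0 and 293 ± 25.4, 2.23), as was Itga9 (2.87). Itga3, the laminin-binding integrin chain of epithelia, was higher in epididymal cells (145 ± 4.30 and 3131 ± 138, -4.29), and so was Nid2, nidogen (-2.67). Another, dimmer probe set of Itga3 gave -0.11.

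Transcription factors of body position differed between the depots in both directions. Of 35 measured limb, body wall and Hox genes, 15 (42.9%) were higher in inguinal, 10 (28.6%) were lower and 10 were not called (median 0.06). Over all genes the shares were 27.4% and 26.3%. The interaction was called for 20 of the 35, against 34.8% of all genes. Beside Shox2, Tbx15 and Meox2, Irx3 rose, at 900.2, 939.7 and 974 against 66.4, 74.3 and 68.7 (3.48 ± 0.09), and Hoxb2 differed by 1.16. Hoxb2 was lower in inguinal than in epididymal GFP+ cells (-0.65, interaction adjusted p = 1.16e-12). Hoxa5 was higher in epididymal cells, at 365, 381 and 325 in inguinal and 2756, 2635 and 2711 in epididymal cells (-2.87 ± 0.06). Hoxb4 (0.06) and En1 were not called. Of 14 visceral lineage factors, 3 (21.4%) were higher in inguinal, 7 (50%) were lower and 4 were not called (median -0.59). Gata6, a factor of visceral mesoderm, read 742, 811 and 716 on the inguinal arrays and 7141, 7828 and 7967 on the epididymal arrays (-3.31 ± 0.05), which places it with Wt1, Bnc1 and Isl1. Wt1, Bnc1 and Isl1 were already counted in the mesothelial list. Nr2f1, an orphan nuclear receptor, rose instead, at 1184, 1186 and 1128 in inguinal and 142, 139 and 157 in epididymal cells (2.87 ± 0.06). In GFP+ cells it was lower in inguinal cells (-2.02, interaction adjusted p = 1.20e-15).

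Regulators of fat cell formation were more often higher than lower in inguinal GFP- cells. The list was not split into activators and inhibitors of the process, so its counts give no direction for fat cell formation. Of 25 measured adipogenic regulators, 13 (52%) were higher in inguinal, 8 (32%) were lower and 4 were not called (median 0.27), against 27.4% and 26.3% of all genes. At least 2-fold were 8 of the rises and 4 of the falls. Egr2, a zinc-finger factor of early adipogenesis, read 3822, 3770.3 and 3719.7 on the inguinal arrays and 483, 608 and 483 on the epididymal arrays (2.82 ± 0.09), next to Ebf1 and Ebf2. Zfp423 was called at 0.68 ± 0.18 (adjusted p = 0.00440) though weakly detected in both groups, and was lower in inguinal GFP+ cells (-0.88, interaction adjusted p = 1.38e-04). Bmp4 was the largest fall. Rxra and Tcf7l1 were not called (0.17 and -0.02), and Rxra was without epididymal replicate 2 (adjusted p = 0.0423).

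Adipocyte lipid genes went both ways: of 24 measured, 9 (37.5%) were higher in inguinal, 10 (41.7%) were lower and 5 were not called (median -0.24). Over all genes the shares were 27.4% and 26.3%. Fabp4, the fatty acid carrier of fat cells, read 1399, 1417 and 1301 on the inguinal arrays and 295, 318 and 288 on the epididymal arrays (2.13 ± 0.09), and G0s2, an inhibitor of fat breakdown, 335, 319 and 384 on the inguinal arrays and 57.8, 50.2 and 45.5 on the epididymal arrays (2.43 ± 0.13). Fabp5 (0.80) and the lipid droplet coat Plin2 (0.61) were also higher in inguinal cells. In GFP+ cells Fabp4 read 4913 ± 845 in inguinal and 6224 ± 225 in epididymal cells, where its depot difference was -0.35. Acly and Acaca, enzymes of fatty acid synthesis, were not called (0.06 and -0.19).

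Signalling lists held large differences in both directions. Of 35 Wnt pathway genes, 8 (22.9%) were higher in inguinal, 11 (31.4%) were lower and 16 were not called (median -0.10). These shares are near those of all genes, 27.4% higher and 26.3% lower. Among ligands, Wnt4 was higher in epididymal cells at 161, 149.7 and 133 against 3782, 3224 and 3633 (-4.44 ± 0.13), in the direction of Rspo1 and Sfrp2. Among antagonists, Dkk2 and Dkk3 were higher in inguinal cells (6.15 and 1.68). The coreceptor Lrp6 and the antagonist Sfrp1 were not called by their brightest probe sets (0.02 and -0.30). Other bright probe sets of Sfrp1 gave -0.61, -1.10 and -0.27 (limma adjusted p over probe sets = 0.0445, 0.00102 and 0.353). Of 39 BMP and TGF-beta pathway genes, 9 (23.1%) were higher in inguinal, 19 (48.7%) were lower and 11 were not called (median -0.32). The Bmp4 ligand and the BMP-induced inhibitors Id2 (696 ± 62.9 and 4849 ± 136, -2.78) and Id4 (-1.58) were all higher in epididymal cells. A dimmer probe set of Id2 gave -0.39. Inhbb, an activin subunit, was higher in inguinal cells by its brighter probe set (3741 ± 127 and 265 ± 21.0, 3.74), while another bright probe set gave -0.50.

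Of 15 genes read for the IGF axis list, 5 (33.3%) were higher in inguinal, 8 (53.3%) were lower and 2 were not called (median -0.71). Over all genes the shares were 27.4% and 26.3%. The IGF counts include Nckap1, a different gene to which the entry H19 was matched by a synonym, so H19 itself was not measured. The ligand Igf1 read 1364, 1329 and 1437 on the inguinal arrays and 5656, 5439 and 5589.9 on the epididymal arrays (-2.00 ± 0.04). Its binding proteins divided, with Igfbp3 higher in epididymal and Igfbp5 and Igfbp7 (0.68) higher in inguinal cells. Igf2 was not called (-0.71, adjusted p = 0.237), though it was in a fit of the 6 GFP- arrays alone (adjusted p = 5.78e-04). Of 18 retinoid genes, 7 (38.9%) were higher in inguinal, 5 (27.8%) were lower and 6 were not called (median 0.06). Aldh1a1, which makes retinoic acid, read 488, 475 and 452 on the inguinal arrays and 19097, 20832 and 19095 on the epididymal arrays (-5.34 ± 0.05, adjusted p = 5.00e-19). Cyp26a1, which breaks it down, read 40.1, 40.7 and 38.5 and 599, 577 and 567 (-3.42 ± 0.18), so both were higher in epididymal cells. The receptor Rarb went the other way at 407, 399.8 and 390.3 and 62.8, 79.0 and 78.9 (2.22 ± 0.10).

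Complement genes other than C1q were higher in epididymal cells more often than in inguinal ones. Of 16 measured, 3 (18.8%) were higher in inguinal, 8 (50%) were lower and 5 were not called (median -0.56), against 27.4% and 26.3% of all genes. C1s1, a protease of the classical pathway, read 574, 592 and 707 on the inguinal arrays and 4455, 5463 and 5073 on the epididymal arrays (-2.97 ± 0.12), and Serping1, its inhibitor, 3721, 3911 and 4465 on the inguinal arrays and 13364, 14913 and 14417 on the epididymal arrays (-1.82 ± 0.07). Masp1, a protease of the lectin pathway, was higher in inguinal cells (2.26). Chemokines and cytokines divided evenly: of 34, 11 were higher in inguinal, 11 were lower and 12 were not called (median -0.08). Cxcl14, Ccl9 (3.63), Ccl7 (1.83) and Il11 (2.83) were higher in inguinal cells. Ccl9 read 1264 ± 156 and 87.0 ± 8.91 in GFP- cells and 1689.7 ± 480.3 and 3687 ± 186 in GFP+ cells, with opposite depot differences (interaction adjusted p = 7.36e-11). Of 26 interferon response and antigen presentation genes, 12 were higher in inguinal, 4 were lower and 10 were not called (median 0.16). Psmb8, an immunoproteasome subunit, read 684, 700.5 and 692 on the inguinal arrays and 66.8, 71.8 and 89.9 on the epididymal arrays (2.95 ± 0.10). The class I genes H2-K1 and H2-D1, whose probe sets may share transcripts, differed by 0.97 and 1.04, and the interferon-induced Ifit2 and Oas1a were not called.

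Cell cycle genes were higher in inguinal GFP- cells. Of 33 measured, 25 (75.8%) were higher in inguinal, 3 (9.09%) were lower and 5 were not called, against 27.4% and 26.3% of all genes. The median was 0.80, and 12 of the rises reached 2-fold. Ccnd1, cyclin D1, read 6448, 6043 and 5775 on the inguinal arrays and 938, 670.0 and 854 on the epididymal arrays (2.88 ± 0.13), and Pcna, the replication clamp, 10217, 10198 and 9860.2 on the inguinal arrays and 5666, 5848 and 5910.5 on the epididymal arrays (0.80 ± 0.03). Ccna2 and Plk1, which act in S phase and mitosis, differed by 0.95 and 0.97. Mcm7 was not called (0.03), nor was Bub1b (-0.18, adjusted p = 0.0568; 0.0310 without epididymal replicate 1). In GFP+ cells 27 members were higher in inguinal and 3 lower, against 23.6% and 27.2% of all genes, so the direction held in both fractions. The labels state that all cultures were below confluence, and the density of each at harvest is not given in the sources used here.

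Junction genes leaned towards epididymal cells. Of 27 measured, 5 (18.5%) were higher in inguinal, 12 (44.4%) were lower and 10 were not called (median -0.28), against 27.4% and 26.3% of all genes. F11r, a tight junction adhesion molecule, read 1995, 2121 and 1966 on the inguinal arrays and 8347, 8217 and 8372 on the epididymal arrays (-2.03 ± 0.04), and the connexins Gja1 and Gjb5 differed by -2.15 and -2.78, while the connexin Gjb2 was one of the leading inguinal genes. Of 15 epithelial markers, 0 were higher in inguinal, 7 were lower and 8 were not called, and 12 were weakly detected over all arrays. Elf3, an epithelial factor, read 86.2 against 492 (-2.32), Krt14 8.31 against 144 (-2.73) and Cldn3 27.3 against 119 (-1.64), as means of the inguinal and epididymal arrays. The other probe sets of Krt14, about as dim, gave -1.53 and 0.0049.

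Other cell types that a stromal culture may hold gave mixed values. Of all genes, 53.7% were called, 27.4% higher in inguinal and 26.3% lower. The called shares were 35.3% for endothelial, 64.7% for mural and smooth muscle, 18.2% for Schwann cell and skeletal muscle, and 11.1% for lymphocyte markers. Of 17 endothelial markers, 3 were higher in inguinal, 3 were lower and 11 were not called, and 12 were weakly detected over all arrays. Kdr, a VEGF receptor, read 139, 115 and 151 on the inguinal arrays and 4615, 4489.6 and 4303 on the epididymal arrays (-4.90 ± 0.14), and Esam, an adhesion molecule, differed by -3.22, whereas Eng, endoglin, was higher in inguinal cells (2.52). Pecam1, a defining endothelial gene, was at the floor in both (11.5 against 17.5). Cdh5 read 67.7 against 33.4 (0.75), and it was not called once its probe sets were averaged (adjusted p = 0.177). Of 17 mural and smooth muscle markers, 7 were higher in inguinal, 4 were lower and 6 were not called. Des, desmin, read 1182, 1220.2 and 1362 on the inguinal arrays and 13525, 13101 and 13547 on the epididymal arrays (-3.40 ± 0.04). Smtn (-1.34) and Myh11 (-0.57) were also higher in epididymal cells, and Mylk in inguinal cells (1.03). Tagln and Cald1 were not called (0.02 and -0.02), though Cald1 was after quantile normalization (adjusted p = 0.0364). Markers of Schwann cells and skeletal muscle numbered 11, of which 2 were higher in inguinal, 0 were lower and 9 were not called. Sox10, a Schwann cell factor, was called at 0.53 (adjusted p = 0.0276) but not without inguinal replicate 2 or 3 or epididymal replicate 1 or 2 (adjusted p = 0.0712, 0.0832, 0.0656 and 0.0985), and its sign turned when its probe sets were averaged (-0.17). Acta1, skeletal actin, differed by 1.63, and its probe set may share transcripts with other actins. Of 9 lymphocyte markers, 0 were higher in inguinal, 1 was lower and 8 were not called. Cd3e, the member called, read 19.8 against 50.6 and lost its call without inguinal or epididymal replicate 3 (adjusted p = 0.0927 and 0.0968).

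**Figure D5:**
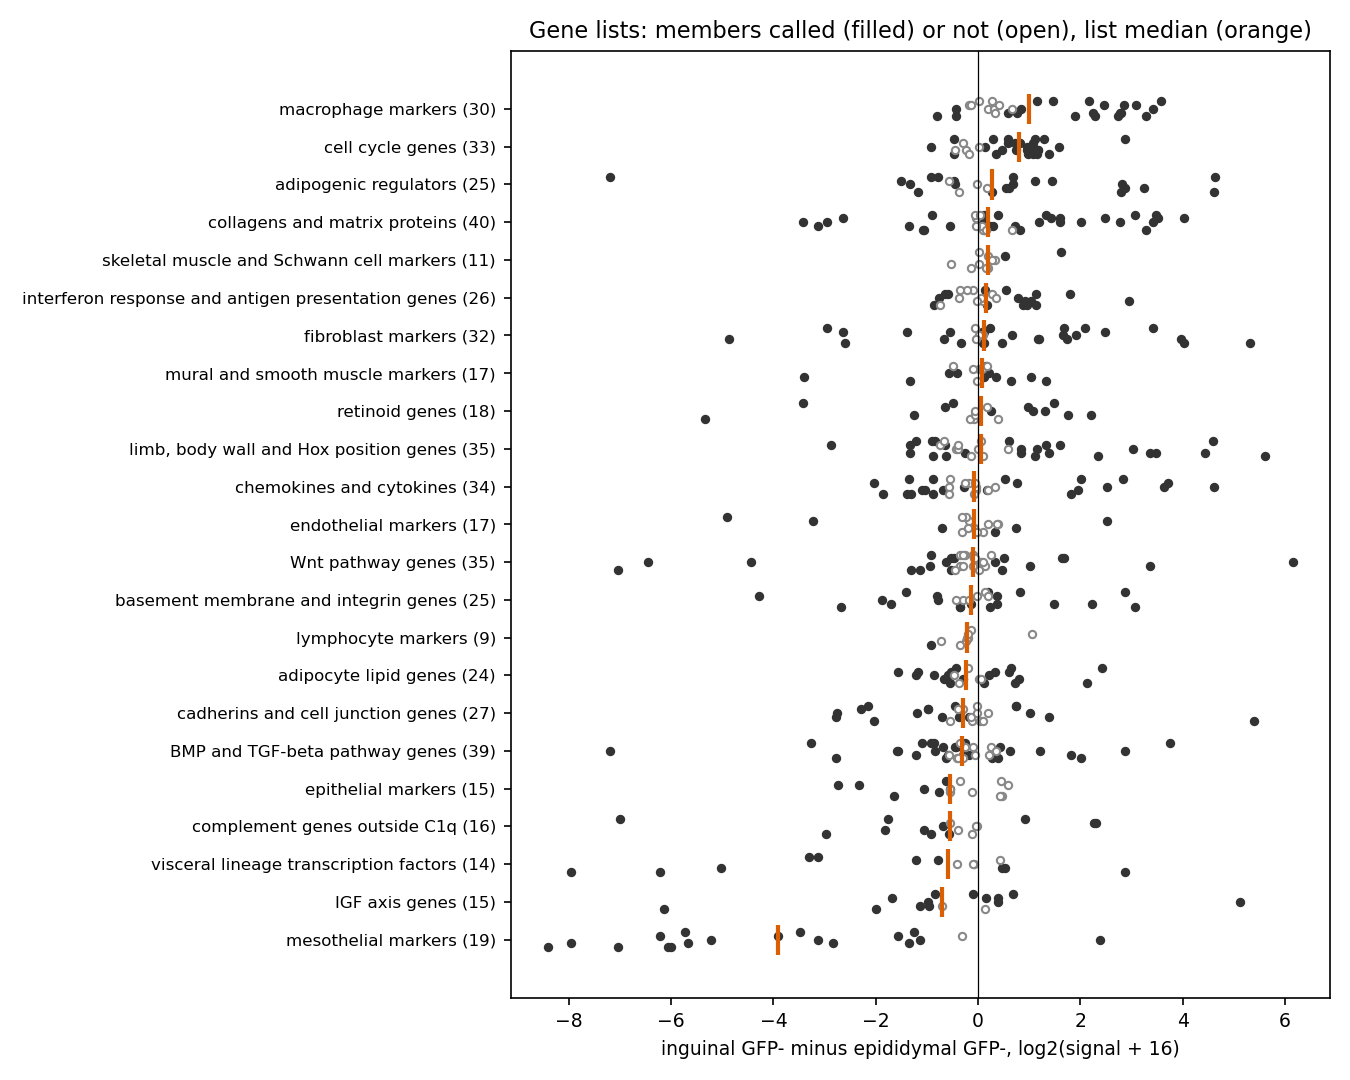
Log2 difference between inguinal and epididymal GFP- cells (x axis) for every measured member of the 23 gene lists (y axis, number measured in brackets), filled where called, with the list median in orange. Mesothelial markers reach from 2.39 down to -8.41 with a median of -3.90, macrophage markers and cell cycle genes have the highest medians, and most other lists spread on both sides of 0.

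The depot difference was then compared between the sorted fractions, which share no arrays. Both comparisons come from 1 fit with 1 estimate of the spread per gene, so their calls are not independent. In GFP+ cells 6292 genes were called (50.8%). Of the genes called in GFP- cells, 4659 were also called in GFP+ cells, which is 70.0% of the GFP- and 74.0% of the GFP+ calls. Of these, 1995 were higher in inguinal in both fractions, 1986 were lower in both, and 678 had opposite directions. The depot difference itself differed between the fractions for 4313 genes (34.8%). The smallest interaction p-values among genes with a more positive difference in GFP- cells were those of Mustn1, Ebf1, Itga9 and Nr2f1. Mustn1, a musculoskeletal nuclear protein, read 2582, 2505 and 2474 and 202, 219 and 189.9 in inguinal and epididymal GFP- cells and 1800.4, 1841 and 1798 and 3972, 4042 and 3965 in the GFP+ cells, which reverses the order of the depots (3.53 and -1.13, interaction adjusted p = 2.73e-16). Among genes with a more negative difference they were those of Aldh1a1, Ezr, Krt7 and Pdpn. Ezr, a linker of membrane and actin, read 719 ± 61.2 and 15053 ± 802 in GFP- and 878 ± 41.0 and 1847 ± 61.8 in GFP+ cells (-4.36 and -1.06, interaction adjusted p = 4.88e-14). Pdpn, podoplanin, was lower in inguinal GFP- cells (-1.01) and higher in inguinal GFP+ cells (0.55, interaction adjusted p = 7.64e-14).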

How the data were processed

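RNA from 12 samples was labelled as biotinylated cRNA and hybridised to Affymetrix arrays, per the labels. The authors deposited probe set intensity on a linear scale; the signal algorithm, background correction and scaling are not given in the sources used here. Scanner files were not analysed here. Of 22626 probe sets, 20380 had 1 gene symbol, 691 several and 1555 none in the platform annotation, and symbols were updated through Entrez identifiers (RefSeq, GRCm38.p6; 24 had no match and were kept). Values became log2(intensity + 16), and each gene was read from the probe set brightest on average. No filter was applied.

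Groups came from the sample titles. Using limma 3.58.1 under R 4.3.3, 4 group means were estimated from all 12 arrays by lmFit and eBayes with a variance trend, with Benjamini-Hochberg adjustment over 12393 genes at 0.05. The interaction is the depot difference in GFP- minus that in GFP+ cells. The 23 gene lists held 585 genes, of which 535 were measured. The 535 include H19, which a synonym matched to Nckap1, a different gene. The number of arrays limits the precision.

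The rule for named genes took the 4 markers and Zfp423, all members of the macrophage, mesothelial and fibroblast lists, the 20 largest called differences per direction (groups without overlap, the brighter one not weakly detected), up to 4 called and 2 uncalled members of each other list, and the 4 genes per direction with the smallest interaction p that were also called in GFP- cells. Pecam1 and Rpl39 were added after their values were seen. The motifs were textbook cores, also chosen after the values were seen. The members and lists were chosen with earlier results of these data known. Replicate numbers did not pair the arrays. Alternatives are given in the closing section.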

Additional observations from a re-analysis of the deposited data

Results flagged for a closer look

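For 4313 genes the difference between inguinal and epididymal fat was not the same in GFP- and GFP+ cells, by the interaction test of limma (adjusted p under 0.05). The values below are the depot difference in GFP- cells minus that in GFP+ cells, on the log2(signal + 16) scale, for the named genes that this test called.

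Among the marker genes these were Pla1a (5.33), Lyz2 (3.29), Upk3b (-3.87) and Bnc1 (-3.79). Among the leading inguinal genes, the difference was more positive in GFP- cells for Gzme (1.45), Gjb2 (1.08), Fgf7 (3.88), Irx1 (2.68), Hgf (2.42), Ccn5 (3.11), Ccn3 (2.43), Ebf1 (4.34), Cxcl14 (4.42), Ebf2 (5.25), Meox2 (3.31), Tubb3 (4.29), Cmah (3.91) and Ms4a4d (3.94), and it was larger in GFP+ cells for Dkk2 (-1.32). Among the leading epididymal genes, it was more negative in GFP- cells for Stk26 (-2.98), Bmp4 (-3.06), Rspo1 (-3.79), Clu (-2.81), Cxadr (-3.0), Sfrp2 (-8.57), Slpi (-2.12), Fam110c (-3.91), Wt1 (-0.62), Hal (-2.57), Igfbp3 (-2.09), Gsta3 (-1.86), Prr15 (-4.36), Saa3 (-1.09), Krt8 (-3.35), Pdlim3 (-4.50), Perp (-2.42) and Gpm6a (-4.03). The 4 genes per direction with the smallest interaction p were Ebf1 and Mustn1 (4.66), Itga9 (4.53) and Nr2f1 (4.89) with a more positive difference in GFP- cells, and Aldh1a1 (-4.18), Ezr (-3.30), Krt7 (-6.48) and Pdpn (-1.56) with a more negative one. Genes that lead in GFP- cells were taken for their size there, so a smaller difference in GFP+ cells is favoured by that choice.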

How the results depend on the processing

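The count of called genes ran from 5532 to 6954 over all settings, that of genes changed at least 2-fold from 964 to 1573 and that of interactions from 3215 to 4476, each within 1.5 times its value above. Replicate numbers did not pair the arrays: same-numbered arrays of the depots had deviations correlated at 0.027, -0.00079 and -0.027. With the replicate number as a block, 6628 genes were called.

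Some list counts moved by over 1.5 times. Leaving out weakly detected genes gave 10 macrophage markers higher, 3 epithelial markers lower, 1 complement gene and 1 muscle or Schwann cell marker higher, 0 lymphocyte markers lower and 5 cell cycle genes lower, over the fewer genes tested. An adjusted p of 0.01 left 1 macrophage marker, 6 adipocyte lipid genes and 0 lymphocyte markers lower, and 1 muscle or Schwann cell marker higher. Averaged probe sets gave 1 muscle or Schwann cell marker higher and 2 interferon and antigen presentation genes lower, and turned the uncalled Lrp6 to -0.12 (called) and the called Sox10 to -0.17 (not called). Array weights, like the fit of the 6 GFP- arrays alone, gave 5 cell cycle genes lower, and that fit 1 muscle or Schwann cell marker lower. Without the variance trend 1 epithelial marker was higher, after quantile normalization 5 endothelial markers were, and under the replicate block 1 lymphocyte marker was. The cause was not tested.

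Leaving out each replicate in turn gave 1 to 2 macrophage markers lower, 6 to 9 lipid genes lower, 0 to 1 epithelial markers higher, 0 to 1 lymphocyte markers higher and 0 to 1 lower, and 1 to 3 muscle or Schwann cell markers higher. Of the 213 named genes, 9 lost their call in at least 1 setting, 19 gained one and 2 of these changed sign. With 3 arrays a group and signals near the floor for many of the lower groups, small differences of dim genes are the least certain.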

Other observations

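Genes that changed at least 2-fold between the depots in both fractions mostly kept their direction. They comprised 137 genes higher and 248 genes lower in inguinal cells of both fractions, against 28 that were higher in inguinal GFP- and lower in inguinal GFP+ cells and 4 with the reverse pattern. Apart from Nr2f1, Itga9, Mustn1, Ccl9, Lyz1, Lyz2, Rarb, Mylk, Krt7 and Sfrp2, given above, the genes named here were chosen after their values were seen. Lama1, a laminin chain of basement membranes, had means of 543 and 50.7 in inguinal and epididymal GFP- cells and 254 and 1947 in the GFP+ cells (log2 differences 3.07 and -2.87). Gpm6b, a membrane glycoprotein, had means of 646 and 82.6 in inguinal and epididymal GFP- cells and 305 and 3208 in the GFP+ cells (2.75 and -3.38). Ppp1r14a, an inhibitor of myosin phosphatase, had 515 and 114 in inguinal and epididymal GFP- cells and 338 and 1564 in the GFP+ cells (2.04 and -2.17). Srgn, the proteoglycan serglycin of leukocyte granules, had 487 and 129 in inguinal and epididymal GFP- cells and 92.8 and 522 in the GFP+ cells (1.79 and -2.31). The retinaldehyde dehydrogenase Aldh1a3 differed by 1.07 and -3.09 and Pgf, a placental growth factor, by 1.21 and -1.89.

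Beside Krt7 and Sfrp2, the genes lower in inguinal GFP- and higher in inguinal GFP+ cells were Itga7, a laminin-binding integrin chain, with means of 315 and 1206 in inguinal and epididymal GFP- cells and 522 and 212 in the GFP+ cells (-1.88 and 1.24), and Mef2c, a muscle and endothelial transcription factor, with 258 and 587 in inguinal and epididymal GFP- cells and 266 and 80.0 in the GFP+ cells (-1.13 and 1.55). All genes named here had a called interaction in limma.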
